A study of Mus musculus with 41 samples.

Results

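Glycolysis was examined through 30 mouse genes, of 21728 protein-coding genes on chromosomes 1 to 19 and X, that encode the enzymes of the pathway and the isozymes that different tissues use for the same step. The genes were chosen by their known place in the pathway, and the rule uses no measured value, but the list was set with earlier results of these data in view. They are the glucose transporter Slc2a1, the hexokinases Hk1, Hk2 and Hk3, the isomerase Gpi1, the phosphofructokinases Pfkl, Pfkm and Pfkp, the enzymes that set the level of the activator fructose 2,6-bisphosphate (Pfkfb1, Pfkfb2, Pfkfb3, Pfkfb4 and Tigar), the fructose bisphosphatases Fbp1 and Fbp2, the aldolases Aldoa and Aldoc, Tpi1, Gapdh and Gapdhs, Pgk1 and Pgk2, the mutases Pgam1, Pgam2 and Bpgm, the enolases Eno1, Eno2 and Eno3, and the pyruvate kinases Pklr and Pkm. All 30 were found in the annotation.

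CUT&Tag, in which an antibody guides a transposase to insert sequencing adapters beside a histone modification, had been performed on 41 samples. Their 24 groups are each defined by 1 cell type and 1 mark. Of the groups, 17 held 2 samples and 7 held 1 sample, and each group was deposited as 1 list of peaks called on its pooled samples. Lactylation of lysine 18 of histone H3 (H3K18la) was profiled in 8 cell types, H3K27me3, a mark of repressed chromatin, in 7, H3K27ac, a mark of active promoters and enhancers, in 5, and H3K4me3, a mark of promoters, in 4. The cell types were E14 embryonic stem cells kept in serum-lif (mESC-ser) or 2i-lif (mESC-2i) medium, primary myoblasts (MB), myotubes made from them in culture (MT), snap-frozen whole gastrocnemius (GAS), macrophages grown from bone marrow with M-CSF (BMDM), macrophages (PIM) sorted from calf muscle as CD45+, CD11b+, F4/80+ and CD64+ cells after hind-limb ischemia, and white adipocytes (ADIPO). By the labels, all cells other than the E14 line came from C57BL/6 mice. The groups of 1 sample were all those of MB and BMDM, and H3K27ac in mESC-ser and PIM. The labels give every sample the same treatment, control, and the stem cells entered the assay as whole cells, the other samples as nuclei. GAS is a tissue of several cell types, and ADIPO nuclei came from epididymal fat of female AdipoCre-NuTRAP mice, in which an adipocyte Cre switches on the tag used to pull nuclei down.

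A gene was called for a mark when a peak overlapped the 2000 bp on either side of any of its transcription start sites (TSS). Because the signal of a peak was not scaled between lists, its strength is given as a percentile, the percent of the peaks of the same list whose total signal was no larger. A gene without a call had no peak among the strongest 1% of regions, which does not show that the mark was absent. There is 1 list per group, so no value of a single list has a replicate error, and each SD is a spread over cell types. The lists hold no read numbers, and those the study gives per sample were not used here. The lists differed in extent, and H3K18la peaks covered between 22.6 Mb in BMDM and 137 Mb in MT.

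The labels were checked against marker genes. The 4 stem cell markers carried H3K18la in both stem cell lists and in no other list, the 5 muscle markers in MT and GAS, the 4 macrophage markers in BMDM and PIM, and the 4 adipocyte markers in ADIPO. MB carried H3K18la at Myod1 and Tnnt3 and not at Ckm, Acta1 or Myog. Markers of other cells were present as well. GAS was called at 3 of 3 endothelial markers, 3 of 3 fibroblast markers and 1 of 4 macrophage markers, BMDM and PIM each at 2 of 3 endothelial markers and at the adipocyte marker Adipoq, and ADIPO at 2 of 3 fibroblast markers and at Acta1. Pecam1 was called in every list other than ADIPO, Cd68 in mESC-ser, mESC-2i, MT and ADIPO beside the macrophages, Csf1r in MT, Col1a1 in MT and Pdgfra in both stem cell lists. The part of such cells in the results below was not tested, and in these bulk lists a mark in fewer cells and less of a mark per cell cannot be told apart.

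Glycolysis splits glucose into pyruvate, and in many cells the pyruvate is then reduced to lactate, the source of the group that marks H3K18la. Hexokinase traps glucose in the cell, phosphofructokinase commits it to the pathway, and pyruvate kinase closes it. Several steps are shared out among isozymes, with Pfkm, Pgam2, Eno3 and Fbp2 known from muscle, Hk3 from blood cells, Eno2 and Aldoc from brain, Pklr and Fbp1 from liver, and Gapdhs and Pgk2 from sperm.

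The promoter sequences of 3 pairs of isozymes or alternative starts are shown as examples of promoters whose calls are described by cell type below. They are the 250 bases before a start of transcription, 5′ to 3′, from RefSeq on GRCm38.p6 (mm10), which matched all 30 genes with 48 promoters. The capitals mark CpG dinucleotides. Hk2 lies at chr6:82774455-82774704 on the minus strand, Hk3 at chr13:55021386-55021635 on the minus strand, the upstream and downstream starts of Pfkm at chr15:98092339-98092588 and chr15:98108221-98108470 on the plus strand, Pgam1 at chr19:41911621-41911870 on the plus strand, and Pgam2 at chr11:5803797-5804046 on the minus strand.
Hk2: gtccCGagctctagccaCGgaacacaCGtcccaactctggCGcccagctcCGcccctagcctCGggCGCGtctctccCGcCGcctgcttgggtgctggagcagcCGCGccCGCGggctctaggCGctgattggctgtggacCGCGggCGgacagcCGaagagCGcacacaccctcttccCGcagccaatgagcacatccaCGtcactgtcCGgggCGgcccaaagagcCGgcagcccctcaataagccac
Hk3: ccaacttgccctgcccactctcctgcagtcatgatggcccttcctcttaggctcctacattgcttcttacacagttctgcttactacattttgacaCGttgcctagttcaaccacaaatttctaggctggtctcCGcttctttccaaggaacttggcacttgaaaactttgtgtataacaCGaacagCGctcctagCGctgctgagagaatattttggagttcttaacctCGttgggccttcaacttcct
Pfkm upstream: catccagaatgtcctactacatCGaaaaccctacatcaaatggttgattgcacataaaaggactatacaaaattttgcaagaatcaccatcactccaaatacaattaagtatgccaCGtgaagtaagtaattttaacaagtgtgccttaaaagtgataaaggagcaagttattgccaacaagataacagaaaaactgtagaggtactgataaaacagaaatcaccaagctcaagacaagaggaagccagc
Pfkm downstream: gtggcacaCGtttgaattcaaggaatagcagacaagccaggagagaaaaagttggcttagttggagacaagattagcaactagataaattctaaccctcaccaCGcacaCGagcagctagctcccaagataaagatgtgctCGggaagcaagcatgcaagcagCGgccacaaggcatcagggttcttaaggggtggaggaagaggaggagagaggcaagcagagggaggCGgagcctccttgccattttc
Pgam1: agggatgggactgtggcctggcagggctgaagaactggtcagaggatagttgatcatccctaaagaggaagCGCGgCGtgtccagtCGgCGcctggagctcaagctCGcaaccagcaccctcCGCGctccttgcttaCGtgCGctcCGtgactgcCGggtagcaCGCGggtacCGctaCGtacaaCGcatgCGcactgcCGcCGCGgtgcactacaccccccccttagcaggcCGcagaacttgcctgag
Pgam2: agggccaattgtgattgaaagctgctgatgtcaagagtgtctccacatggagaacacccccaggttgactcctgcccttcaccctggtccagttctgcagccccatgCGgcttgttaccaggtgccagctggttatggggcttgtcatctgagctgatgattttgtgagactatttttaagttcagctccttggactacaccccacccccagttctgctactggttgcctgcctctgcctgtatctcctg

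The Hk2 and Pgam1 sequences held 25 and 22 CpG dinucleotides, and those of Hk3, Pfkm upstream, Pfkm downstream and Pgam2 held 6, 2, 6 and 1, beside a median of 6 over 32851 promoter sequences of the same length. The letters ACGTG, the core of the hypoxia response element, occurred on either strand in 5 of these 6 sequences and not in that of Pgam2. Over all sequences of this length 16.6% held them, and 15 of the 48 promoters of the glycolytic genes did (31.2%). The letters CANNTG, the E-box recognised by the MyoD family among others, read the same on both strands and occurred 5 times in Pgam2, 3 times in Pfkm upstream, once in Hk3 and not in the others. CACGTG in Pfkm upstream counts under both motifs. Over all sequences 66.2% held CANNTG, and 30 of the 48 promoters did (62.5%). A match is a description of the letters and no evidence of binding.

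H3K18la was found at more of the glycolytic promoters than of promoters in general, in each of the 8 cell types. GAS had 23 of the 30 genes called, with 36.1% of all protein-coding genes called in the same list. ADIPO had 22 (44.7% of all genes), mESC-2i 20 (37.8%), and mESC-ser, MT and PIM 18 each (33.4%, 34.8% and 37.9%). BMDM had 13 (18.5%) and MB, the smallest share of all genes, 12 (11.1%). The mean was 18 ± 3.89 genes (SD, n = 8 cell types), and the share of glycolytic genes exceeded the share of all genes by 28.2 ± 5.54 percentage points (SD, n = 8), with a range of 22.1 in PIM to 40.6 in GAS. No test is given over the list, since it was set with earlier results known. The glycolytic genes also had more annotated starts and wider windows than other genes, with medians of 6.5 TSS and 8812 bp against 3 TSS and 6962 bp. With only the most upstream TSS of each gene record the difference was 26.3 points, and with every H3K18la list reduced to the bases of the smallest it was 15.4 points, over 6.5 genes per list.

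The other active marks also gave an excess. H3K27ac was called at 21 of the 30 genes in mESC-ser (40.2% of all genes), 23 in GAS (46.9%), 18 in BMDM (34%), 23 in PIM (48.7%) and 21 in ADIPO (46.1%), an excess of 27.5 ± 2.52 points (SD, n = 5). H3K4me3 was called at 19 in mESC-ser (48.8%), 22 in mESC-2i (61.8%), 24 in GAS (64.2%) and 25 in PIM (59.4%), an excess of 16.5 ± 5.3 points (SD, n = 4), which was 31.8 points with only the 5000 strongest peaks of each list. For the repressive mark the direction turned. H3K27me3 was called at 4 genes in mESC-ser (27.1%), 3 in mESC-2i (22.5%), 2 in MB (12.6%), 7 in MT (20.1%), 6 in GAS (24%), 2 in BMDM (19.2%) and 5 in PIM (26.5%), and the share lay below that of all genes in 6 of 7 cell types, by −7.89 ± 6.1 points on average (SD, n = 7). MT was the exception, and 4 of its 7 calls, at Pfkm, Pfkfb1, Fbp2 and Tigar, had no peak over a coding start of the gene itself. The same held outside MT for Hk3 in GAS, Pklr in mESC-ser and Tigar in PIM, and 22 of all 29 calls had such a peak. The share of such calls over all genes was not computed. The plot of shares by list shows these pairs of values.

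**Figure D1:**
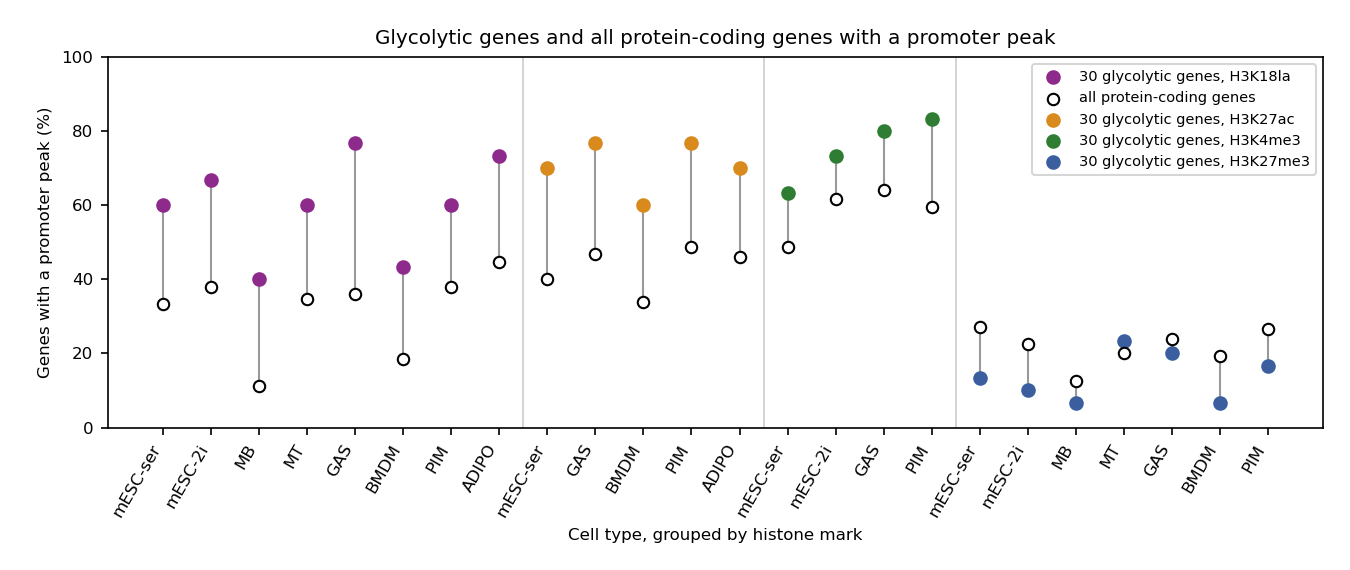
Percent of genes with a promoter peak (vertical axis, linear from 0) in each of the 24 lists, grouped by mark along the horizontal axis. Filled points are the 30 glycolytic genes and open points all 21728 protein-coding genes, and the filled points lie above the open ones in all lists of the 3 active marks and below them in 6 of the 7 H3K27me3 lists.

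Across cell types the genes fell between 2 ends. Hk2, Pfkp, Pfkfb3, Aldoa, Gapdh, Pgk1, Eno1 and Pkm carried H3K18la at the promoter in all 8 cell types, 8 of the 30 genes where 2.69% of all protein-coding genes did. Each of these 8 serves a different step or branch, and between them they cover hexokinase, phosphofructokinase and its activator, aldolase, the dehydrogenase, phosphoglycerate kinase, enolase and pyruvate kinase. The 4 genes without a call in any cell type were Fbp1, Gapdhs, Pgk2 and Pklr, where 30.3% of all genes had none. Fbp1 and Pklr are known from liver and Gapdhs and Pgk2 from sperm, and neither tissue was among the 8 cell types. Slc2a1, Hk1, Pfkfb2 and Eno3 were called in 7 cell types and Gpi1, Pfkfb4, Tpi1 and Pgam1 in 6. When the lists were cut to equal extent, none of the 30 genes was called in all 8 and 11 in none. With only the 5000 strongest peaks of each list no gene was called in all 8 either.

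**Figure D2:**
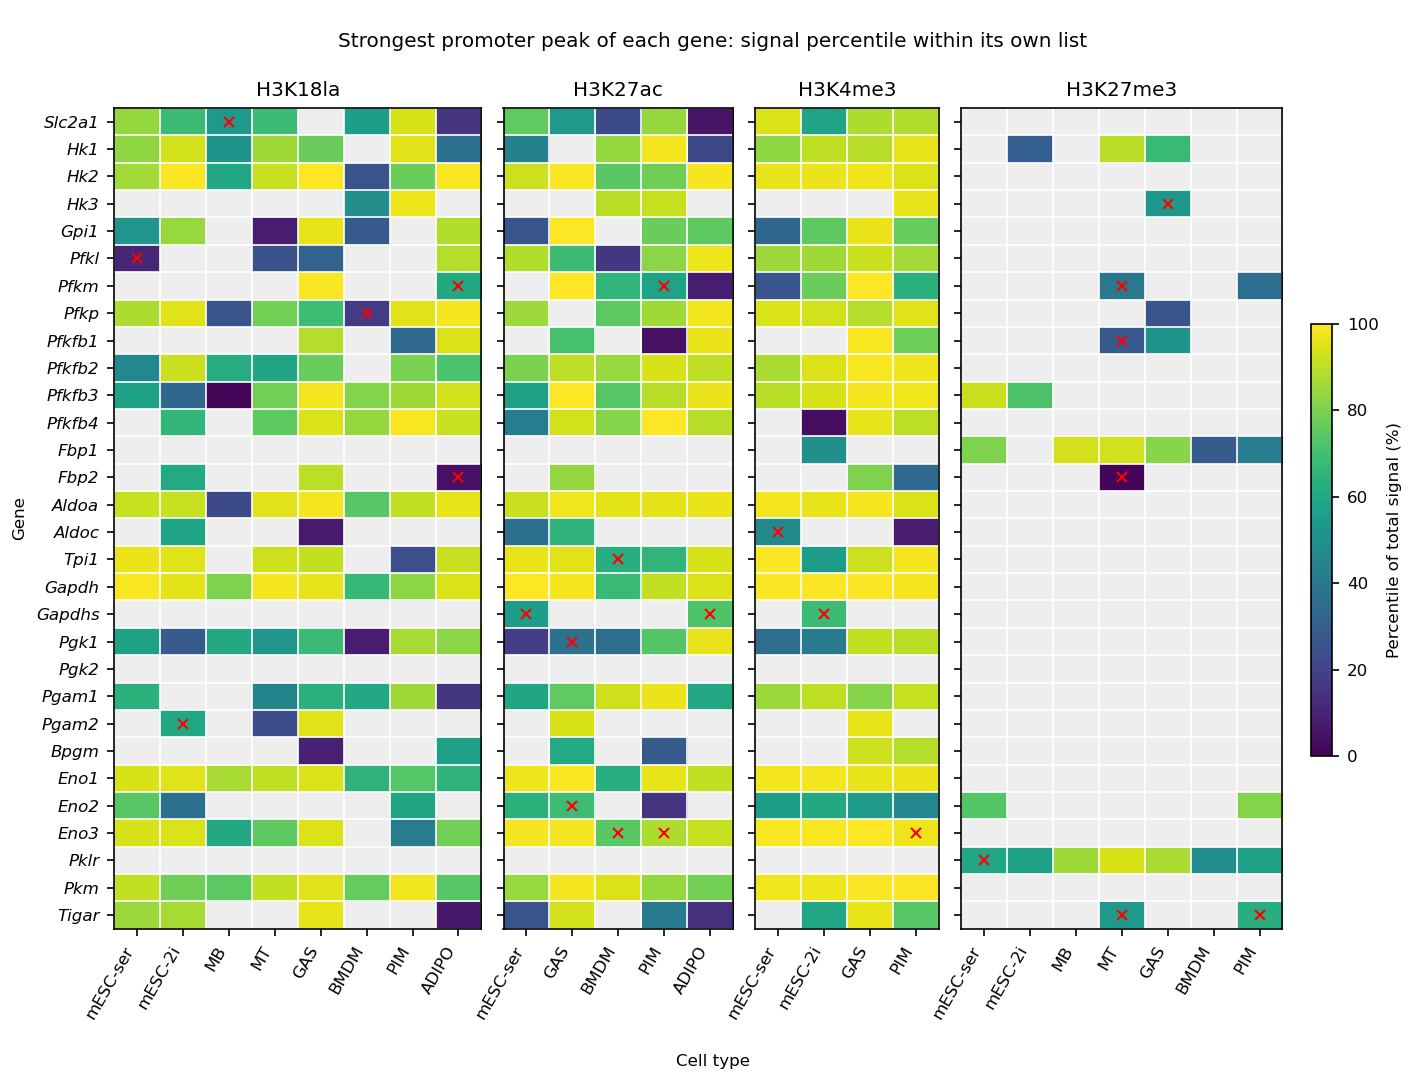
Signal percentile (colour, 0 to 100%) of the strongest promoter peak of each of the 30 genes (vertical axis) in each cell type (horizontal axis), in 1 panel per mark. Grey marks no call and a red cross a call whose peaks covered no coding start of the gene itself, and the rows of Fbp1, Gapdhs, Pgk2 and Pklr are grey throughout the H3K18la panel.

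A call by position does not tell which of 2 neighbouring genes a peak belongs to. Of the 144 H3K18la calls, 138 included a peak over a coding start of the gene itself, and in 118 of these that peak was also the strongest at the promoter. The exceptions were the calls of Pfkl in mESC-ser, Pgam2 in mESC-2i, Slc2a1 in MB, Pfkp in BMDM, and Pfkm and Fbp2 in ADIPO. Peaks of Pfkfb2 also covered the start of Yod1 in all 7 lists, those of Pfkfb1 the start of Apex2 in all 3, and peaks of Aldoa, Tpi1 and Eno3 reached Fam57b, Spsb2 and Pfn1 in several lists. The count of calls with the gene's own start covered was 17.2 per list.

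Slc2a1, which encodes the widely expressed glucose transporter GLUT1, was called in every cell type other than GAS. Its H3K18la percentile ran from 14.9 in ADIPO and 53.9 in MB to 84.3 in mESC-ser and 94.0 in PIM. GAS did carry H3K27ac (53.7) and H3K4me3 (87.6) at this promoter, so the missing call concerned H3K18la.

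The 3 hexokinases, which phosphorylate glucose, differed in breadth. Hk2, the isozyme bound to mitochondria in muscle, fat and fast-growing cells, had an H3K18la percentile of 86.3 in mESC-ser, 99.5 in mESC-2i, 59.5 in MB, 91.7 in MT, 99.9 in GAS, 25.8 in BMDM, 77.4 in PIM and 99.0 in ADIPO. It was thus among the strongest peaks of GAS, ADIPO and mESC-2i and among the weaker ones of BMDM. In GAS the peak was 31657 bp wide (chr6:82745896-82777552, total signal 1065808) and ran from upstream of the start deep into the gene, in ADIPO it was 16276 bp, and in BMDM 1207 bp. The stem cell values need care, because there the strongest peak lay at a non-coding start near the 3′ end of Hk2, as wide as 51997 bp in mESC-2i. The peaks over the coding start were at the percentiles 83.6 in mESC-ser and 79.8 in mESC-2i.

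Hk3, the hexokinase of blood cells, was called in both macrophage lists and in none of the other 6. Its percentile was 97.5 in PIM, with a peak of 6239 bp (total signal 304745), and 49.3 in BMDM, with a peak of 1086 bp (total signal 35574). The peak over the start in BMDM was weaker, at 43.4. H3K27ac followed the same division, at 89.6 in BMDM and 91.5 in PIM and without a call in mESC-ser, GAS and ADIPO, and H3K4me3 was called in PIM (96.4) and not in the other 3 lists. The macrophage mean of the H3K18la percentile was 73.4 ± 34.1 (SD, n = 2) against 0 in all 6 other cell types. The exact two-sided permutation test gave p = 0.0357, the smallest value that 28 assignments of cell types allow, and the Benjamini-Hochberg adjusted p over 15147 genes was 0.71.

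**Figure D3:**
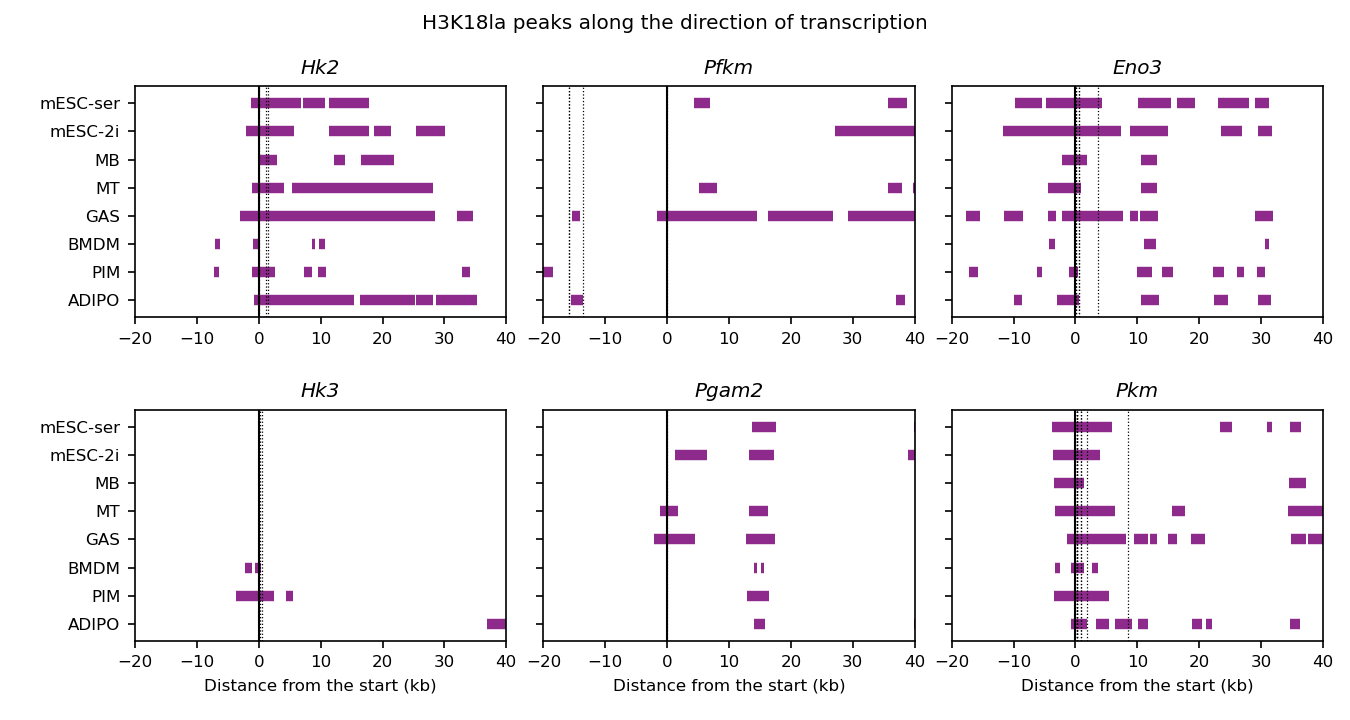
H3K18la peaks (purple bars) in the 8 cell types (rows) around 6 genes, against the distance in kb along the direction of transcription. The solid line at 0 is the most upstream coding start, or for Pfkm the most downstream one, and dotted lines are other coding starts. Hk3 has bars at its start in BMDM and PIM, Pfkm in GAS, and Pkm in all 8 rows.

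Hk1, the hexokinase of most tissues, was called in every cell type other than BMDM, from 36.7 in ADIPO to 95.3 in PIM. Its marks separated the alternative starts of the gene. In all 7 lists with a call, H3K18la covered the start at chr10:62340542, 39.366 kb downstream of the most upstream coding start, and no H3K18la, H3K27ac or H3K4me3 peak covered any coding start upstream of it. H3K27me3 lay on those upstream starts instead, in MT at 4 of the 5 upstream clusters of starts, in GAS at 2 and in mESC-2i at 1. The nearest promoter peaks of the 2 marks were 16275 bp apart in MT, 32259 bp in mESC-2i and 33379 bp in GAS. A count of Hk1 as carrying both marks therefore describes different promoters of the gene.

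**Figure D4:**
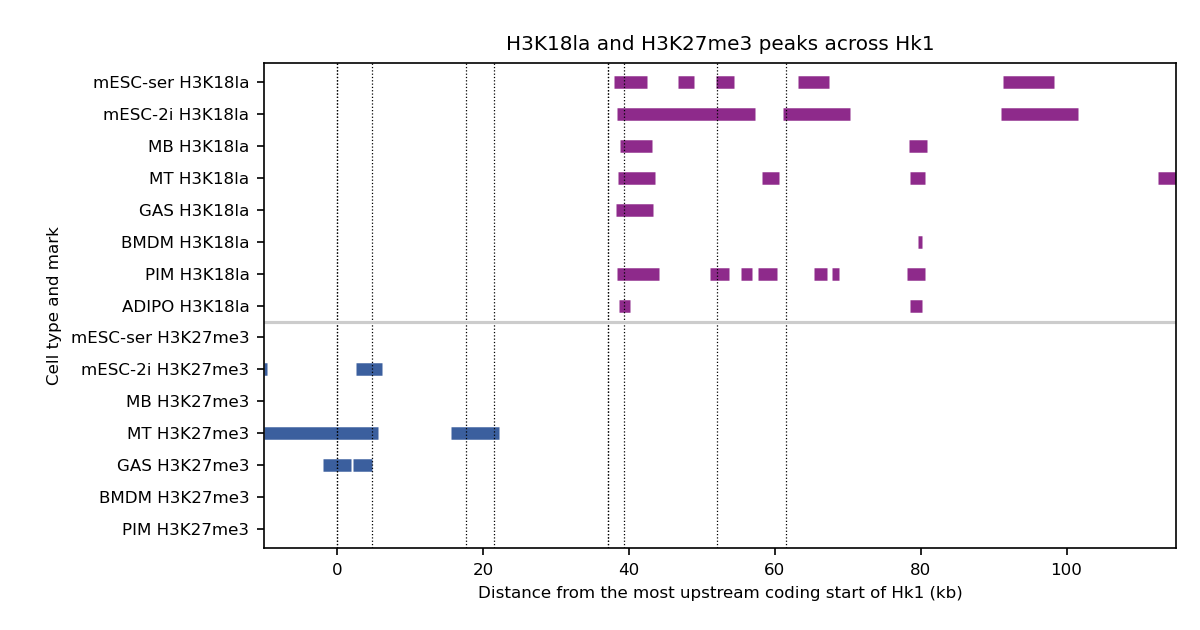
Peaks of H3K18la (purple, 8 cell types) and H3K27me3 (blue, 7 cell types) across Hk1, against the distance in kb from its most upstream coding start. Dotted lines are coding starts. The purple bars of 7 cell types cover the start near 39 kb, and the blue bars of MT, GAS and mESC-2i lie upstream of it.

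Among the phosphofructokinases, Pfkp was the broadest and Pfkm, the muscle isozyme, the most restricted. Pfkp, the platelet isozyme, was called in all 8 cell types, from 17.3 in BMDM to 95.5 in mESC-2i and PIM and 98.8 in ADIPO. In GAS it stood at 69.1 with a peak of 2426 bp, carried no H3K27ac call, and had an H3K27me3 peak (26.5) that shared 2364 bp with the H3K18la peak. H3K27ac was called at Pfkp in the other 4 cell types, between 75.1 and 98.2. Pfkl, the liver isozyme, was called in 4 cell types, at 10.9 in mESC-ser, 24.8 in MT, 31.6 in GAS and 88.8 in ADIPO. All 4 H3K4me3 lists and all 5 H3K27ac lists had a call at Pfkl.

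Pfkm carried H3K18la in GAS at the percentile 99.0, with a peak of 16071 bp (total signal 437827), and in ADIPO at 60.9, with a peak of 1957 bp that covered the start of the neighbour Senp1 and none of Pfkm. The downstream start, whose sequence is given above, was covered by H3K18la and by H3K27ac in GAS and in no other list of these marks. H3K4me3 covered it in mESC-2i, GAS and PIM, and H3K27me3 in PIM. The upstream starts had H3K4me3 in all 4 lists and H3K27ac in GAS, BMDM and ADIPO, and none of them lay under an H3K18la peak, although peaks in GAS and ADIPO came within 2000 bp. MB and MT had no H3K18la call at Pfkm, and the muscle mean of the percentile, 33.0 ± 57.2 (SD, n = 3), did not differ beyond that spread from 12.2 ± 27.3 in the other 5 cell types (exact permutation test, p = 0.732, adjusted p = 1). The mean outside muscle rested on the ADIPO peak over Senp1 alone.

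The bifunctional enzymes make and degrade fructose 2,6-bisphosphate, the strongest activator of phosphofructokinase. Pfkfb3, the inducible form with high kinase activity, was called in all 8 cell types, from 1.33 in MB and 33.6 in mESC-2i to 98.3 in GAS, where its peak was 14948 bp wide. Pfkfb4 was called in 6 cell types, at 66.1 in mESC-2i, 75.2 in MT, 84.3 in BMDM, 91.5 in ADIPO, 94.8 in GAS and 99.1 in PIM. The Pfkfb4 peak over the coding start was weaker in 4 of these, at 69.1 in BMDM, 75.7 in PIM, 85.9 in ADIPO and 90.4 in GAS. Pfkfb1, known from liver and muscle, was called in GAS (88.7), PIM (34.1) and ADIPO (94.7), and Pfkfb2, known from heart, in 7 cell types between 46.7 and 91.9. The highest of these, in mESC-2i, came from a peak away from the coding start, over which the value was 65.1. Tigar, which removes fructose 2,6-bisphosphate, was called in mESC-ser (84.8), mESC-2i (87.1), GAS (96.4) and ADIPO (6.82). The stem cell mean of Tigar exceeded that of the other 6 cell types by 68.7 percentile points, which passed no threshold (exact permutation test, p = 0.107, adjusted p = 0.479), and with the lists cut to equal bases it was −3.28.

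Fructose bisphosphatase runs the step of phosphofructokinase backwards for gluconeogenesis. Fbp1, the liver form, had no promoter call of H3K18la or H3K27ac in any list, H3K4me3 in mESC-2i (49.7), and H3K27me3 in 6 of 7 cell types, from 28.8 in BMDM to 93.6 in MB. Fbp2, the muscle form, carried H3K18la in GAS at 89.9 (6642 bp), in mESC-2i at 61.1 (4003 bp) and in ADIPO at 4.78 with a peak off its start. H3K27ac was called at Fbp2 in GAS (84.2) and in none of the other 4 cell types, and H3K4me3 in GAS (80.6) and PIM (34.3).

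The next steps had a broad gene with H3K18la nearly everywhere. Aldoa, the main aldolase of muscle and most other tissues, was called in 8 cell types, from 22.4 in MB to 98.1 in GAS, and Aldoc in mESC-2i (58.0) and GAS (7.17). Tpi1 and Gpi1, each the sole isomerase of its step in this list, were called in 6 cell types each. Gapdh had a percentile of 98.9 in mESC-ser, 95.8 in mESC-2i, 80.7 in MB, 98.3 in MT, 96.8 in GAS, 66.8 in BMDM, 82.9 in PIM and 94.5 in ADIPO, and its widest peak was 23063 bp, in mESC-ser. The sperm isozyme Gapdhs had no H3K18la call at its promoter, and its H3K27ac calls in mESC-ser and ADIPO and its H3K4me3 call in mESC-2i covered the start of Tmem147 and not its own. Pgk1 was called in 8 cell types at lower ranks, from 7.94 in BMDM to 87.1 in PIM, and its sperm counterpart Pgk2 had no call of any mark in any of the 24 lists.

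Of the phosphoglycerate mutases, Pgam1, the widely expressed form, was called in 6 cell types, from 15.7 in ADIPO to 85.7 in PIM. The PIM value came from a peak inside the gene, and the peak over the start stood at 35.8, so that the highest value over the start was 64.4, in mESC-ser. Pgam2, the muscle form, had a peak of 6639 bp at the percentile 95.2 in GAS (total signal 197412) and one of 2853 bp at 23.8 in MT (total signal 32082), and no call in MB. The mESC-2i call at 59.9 came from a peak beyond its start. H3K27ac (93.8) and H3K4me3 (96.8) were called at Pgam2 in GAS and in none of their other lists. The muscle mean of the H3K18la percentile was 39.7 ± 49.6 (SD, n = 3) against 12.0 ± 26.8 (SD, n = 5), a difference within the spread (exact permutation test, p = 0.375, adjusted p = 0.93), and without GAS it was −0.0918 percentile points. The mean outside muscle rested on the mESC-2i call alone, whose peak lay beyond the start. Bpgm, which makes the 2,3-bisphosphoglycerate of red cells, was called at 9.17 in GAS and 56.6 in ADIPO.

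The enolases held 2 genes with H3K18la in most cell types and a restricted one. Eno1 was called in 8 cell types, from 65 in ADIPO to 95.7 in mESC-2i. Eno2, the neuronal form, was called in mESC-ser (74.2), mESC-2i (36.4) and PIM (59.1), and in no muscle list. Its stem cell mean of 55.3 ± 26.7 (SD, n = 2) against 9.85 ± 24.1 (SD, n = 6) gave p = 0.0714 in the exact permutation test (adjusted p = 0.39), and the difference of 45.5 percentile points was 26.6 without mESC-ser. Eno3, the muscle form, was not restricted to muscle. Its percentile was 94.1 in mESC-ser, 94.7 in mESC-2i, 60.4 in MB, 75.2 in MT, 94.6 in GAS, 42.2 in PIM and 78.6 in ADIPO, with no call in BMDM. The peaks in mESC-ser, mESC-2i, MT and ADIPO also covered the start of Pfn1, an actin-binding gene beside it, and those in MB, GAS and PIM covered the Eno3 start alone. The macrophage mean of Eno3 was 21.1 ± 29.8 (SD, n = 2) against 82.9 ± 14 (SD, n = 6), at the smallest p that the exact permutation test allows (0.0357, adjusted p = 0.71). The difference of −61.8 percentile points was −40.7 without BMDM and −6.14 with the lists cut to equal bases. In both macrophage types the H3K27ac peak covered the start of Pfn1 and not that of Eno3.

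Pkm, the pyruvate kinase of muscle and most other tissues, was called in 8 cell types within a narrow range, from 73.9 in ADIPO to 97.9 in PIM. Pklr, the form of liver and red cells, had no call of any active mark and was the one gene with H3K27me3 in all 7 lists, from 48.6 in BMDM to 94.1 in MT. In mESC-ser the peak did not cover its start. Fbp1 and Pklr together made up 13 of the 29 H3K27me3 calls of the 30 genes.

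By lineage, the test over all 15147 genes with H3K18la in at least 1 cell type made no call. The numbers at an adjusted p under 0.05 were 0 for muscle (3 cell types against 5), stem cells and macrophages (2 against 6 each). At an unadjusted p under 0.05 there were 376 genes for muscle, 2162 for stem cells and 762 for macrophages, or 2.48%, 14.3% and 5.03% of the genes, and Hk3 and Eno3 were the only glycolytic genes among them, both for macrophages. With so few cell types a single gene cannot reach a smaller p than 0.0179 for muscle or 0.0357 for the others. The isozyme differences above are therefore descriptions of these lists.

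Grouped by the tissue for which they are known, the 14 broad genes carried H3K18la in 96 of 112 gene and cell type combinations (85.7%), the 4 muscle isozymes in 15 of 32 (46.9%), the 10 other restricted isozymes in 33 of 80 (41.2%) and the 2 sperm isozymes in 0 of 16, where the share of all genes averaged 31.8% over the 8 lists. Most of the 33 calls came from Pfkp, Pfkfb2 and Pfkfb4, called in 8, 7 and 6 cell types. The others of that group, Hk3, Pfkfb1, Fbp1, Aldoc, Bpgm, Eno2 and Pklr, were each called in 3 or fewer. Of the 12 combinations of the muscle isozymes with muscle cells, 7 were called, and Eno3 accounted for 3 of these, with 11.1%, 34.8% and 36.1% of all genes called in MB, MT and GAS. The same isozymes were called in 4 of 8 combinations with stem cells, 1 of 8 with macrophages and 3 of 4 with ADIPO, where 33.4% and 37.8%, 18.5% and 37.9%, and 44.7% of all genes were called. A start of the gene itself lay under a peak in 3 of the 4 calls in stem cells and in 1 of the 3 in ADIPO.

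CpG islands divided the calls as well. An island, a stretch rich in CpG, lay in the promoter windows of 20 of the 30 genes, and of 59.5% of all genes. The 20 carried H3K18la in 120 of 160 combinations (75%), where all island genes did in 43.5%. The 10 without an island, Hk3, Pfkfb4, Fbp2, Aldoc, Tpi1, Gapdhs, Pgk2, Pgam2, Bpgm and Pklr, carried it in 24 of 80 (30%), where all genes without an island did in 14.7%. Compared only with island genes, the excess of the glycolytic genes was 31.5 points for H3K18la and 6.21 points for H3K4me3.

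Where a glycolytic promoter was called, its median rank and width exceeded those of all called genes, least so in MB and BMDM. These were the H3K18la lists of 1 sample each. The median percentile of the called glycolytic genes was 94.2 in GAS, 85.8 in mESC-2i and PIM, 84.6 in mESC-ser, 80.6 in ADIPO, 77.0 in MT, 60 in BMDM and 59.9 in MB, and the mean was 78.5 ± 12.5 (SD, n = 8) against 57.7 ± 3.96 for all called genes. All called genes had medians of 53.5 in MB and 51.2 in BMDM, and in these lists no glycolytic gene was in the top 10% of peaks, where 14.4% and 10.2% of all called genes were. Median widths ran from 1356 bp in BMDM to 9375 bp in mESC-2i, and were 1.79 ± 0.45 times the median of all called genes (SD, n = 8), highest in GAS at 2.62 times (6642 bp against 2532 bp). The ratio was above 1 in all 8 lists for H3K18la, with 1.47 ± 0.353 for H3K27ac (n = 5) and 1.71 ± 0.261 for H3K4me3 (n = 4). Among the 5000 strongest H3K18la peaks of each list the log2 of the width ratio fell from 0.803 to 0.0538, so the greater width did not hold among peaks of that strength. These medians cover only the genes that were called, and take the strongest peak over all windows of a gene. With only peaks over a coding start of the gene itself, the median percentiles were 90.7 in GAS, 84.3 in mESC-ser, 81.3 in PIM, 79.8 in mESC-2i, 76.2 in ADIPO, 71.9 in MT, 60.4 in MB and 58.0 in BMDM. They were lower in every list other than MB. Total signal sums coverage over the width of a peak, so rank and width are not independent.

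**Figure D5:**
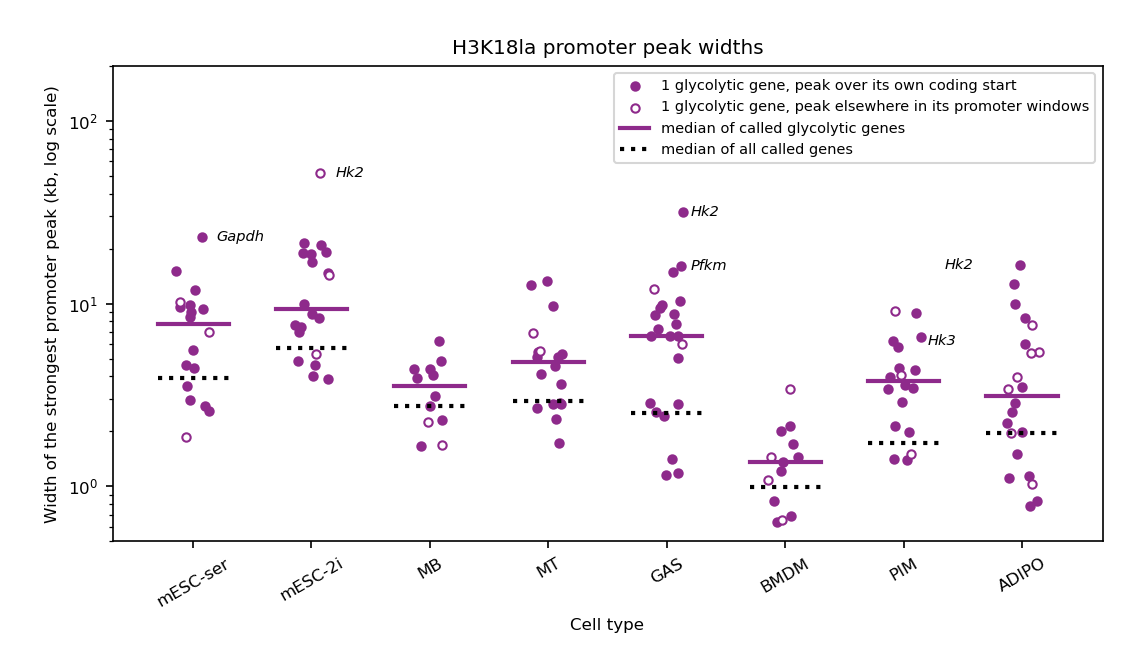
Width in kb, on a log axis, of the strongest H3K18la promoter peak of each called glycolytic gene in the 8 cell types. Filled points are peaks over a coding start of the gene and open points lie elsewhere in its promoter windows. Purple lines are medians of the called glycolytic genes and dotted lines those of all called genes, and the purple line is the higher one in all 8 cell types.

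H3K18la peaks reached into the genes. In GAS, 11 of the 30 gene records lay under H3K18la peaks for at least 50% of their length, among 5.35% of all genes. They were Hk2, Gpi1, Pfkm, Pfkfb3, Aldoa, Tpi1, Gapdh, Pgam2, Eno1, Eno3 and Pkm, which between them leave out only the phosphoglycerate kinase step of the pathway. MT had 6 such genes (4.2% of all genes), with Pgam2 and Hk2 among them, mESC-2i 6 (10.7%), mESC-ser 5 (7.51%), PIM 4 (2.32%), ADIPO 3 (4.35%), MB 1 (0.897%) and BMDM 0 (0.354%). The MT peak at Pgam2, 2853 bp, was no wider than the median peak of its list, 2965 bp, and the gene is 2094 bp long. Aldoa has 2 gene records, of which the longer, 8319 bp, was used. The shorter, 5518 bp, lay under H3K18la peaks for at least 50% of its length in mESC-ser, mESC-2i, MT, GAS, PIM and ADIPO, and for 40.1% in MB and 32.4% in BMDM, so with it Aldoa would join the counts of mESC-ser, mESC-2i, PIM and ADIPO. Gapdh was covered to this extent in 7 of the 8 cell types. PIM was the list in which Pfkfb4 and Pgam1 were covered. The median length of the glycolytic genes, 22277 bp, was above that of all genes, 17429 bp. Several of the covered records were short, however, such as Tpi1 (3711 bp), Gapdh (4753 bp) and Eno3 (5312 bp), and a promoter peak alone can cover much of such a record.

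H3K18la at these promoters was compared with the other marks. In the 5 cell types with both marks, 89 combinations of gene and cell type had H3K18la and H3K27ac, 5 had H3K18la alone, 17 H3K27ac alone and 39 neither. H3K27ac thus accompanied 94.7% of the H3K18la calls, and 86.0% over all genes. With H3K4me3, in 4 cell types, 74 combinations had both, 5 H3K18la alone, 16 H3K4me3 alone and 25 neither. H3K4me3 accompanied 93.7% of the H3K18la calls, near the 91.5% over all genes, and in mESC-2i the share was lower than over all genes (85% against 91.4%). With H3K27me3, in 7 cell types, 9 had both, 113 H3K18la alone, 20 H3K27me3 alone and 68 neither, so that 7.38% of the H3K18la calls also had H3K27me3, and 13.8% over all genes.

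The 9 combinations with both H3K18la and H3K27me3 came from 5 genes. In 6 of them the peaks overlapped. These were Pfkfb3 in mESC-ser (2951 bp shared) and in mESC-2i (5132 bp), Eno2 in mESC-ser (3000 bp) and in PIM (2883 bp), and Pfkp (2364 bp) and Pfkfb1 (2867 bp) in GAS. The other 3 were those of Hk1 described above. A list pools many cells and both chromosome copies, so whether both marks were on the same molecules cannot be told from it.

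Related cell types were compared by their calls. Between MB and MT, 12 glycolytic genes had H3K18la in both (10.2% of all genes), none in MB alone (0.911%), and Gpi1, Pfkl, Pfkfb4, Tpi1, Pgam1 and Pgam2 in MT alone, while 24.6% of all genes were called in MT alone, so that these 6 of 30 lie near the background. MT and GAS shared 17 (24.6% of all genes), with Slc2a1 in MT alone and Pfkm, Pfkfb1, Fbp2, Aldoc, Bpgm and Tigar in GAS alone, beside 10.2% and 11.5% of all genes called in 1 of the 2 alone. BMDM and PIM shared 12 (17.2% of all genes), with Gpi1 in BMDM alone (1.34%) and Hk1, Pfkfb1, Pfkfb2, Tpi1, Eno2 and Eno3 in PIM alone, again near the background of 20.7%. mESC-ser and mESC-2i shared 16 (28.6% of all genes), with Pfkl and Pgam1 in mESC-ser alone and Pfkfb4, Fbp2, Aldoc and Pgam2 in mESC-2i alone, beside 4.79% and 9.19% of all genes, and these counts of 2 and 4 among 30 lie near those shares. The list of MB covered 40.5 Mb and that of MT 137 Mb, and those of BMDM and PIM 22.6 and 68.9 Mb. The lists of MB and BMDM came from 1 sample each, those of MT and PIM from 2. The parts of list size and sample number in these differences were not tested.

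Of 21 other genes of glucose metabolism, H3K18la was called at 15 in ADIPO, 12 in mESC-2i, 11 in mESC-ser and in GAS, 10 in MT, 5 in PIM, and 1 each in MB and BMDM. Read against the shares of all genes given above, these counts lay above the background in 5 lists and below it in MB, BMDM and PIM. Slc2a4, the insulin-responsive transporter GLUT4 of muscle and fat, stood at 97.3 in ADIPO and 91.9 in GAS, 70.4 in mESC-ser, 48.5 in mESC-2i and 46.9 in MT. Slc2a3, the neuronal transporter GLUT3, was called in mESC-ser (91.6), mESC-2i (86.3), PIM (65.7) and ADIPO (93.4).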

How the data were processed

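Peak lists of 24 groups were used, each a cell type and a mark, made by the authors from trimmed paired reads aligned to mm10 with Bowtie2 2.4.4. Coverage was computed with bedtools, replicates were combined, and peaks were called with SEACR 1.3 (stringent, top 1% of regions, no control). The deposited signal columns give, per peak, total and maximum coverage, and all values were whole numbers, so signal was compared within lists. The study states read numbers per sample, which were not used here, and that peaks in blacklisted regions were filtered out. Whether that was done before these lists were deposited was not tested. Stem cell lists named without a medium were assigned to mESC-ser.

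The lists hold 545737 peaks, and the 545474 on chromosomes 1 to 19 and X were kept. Promoters were 2000 bp on either side of each TSS in GENCODE vM21, and 1 bp of overlap counted. CpG islands were runs of unmasked sequence (score 17 at a CpG, −1 elsewhere) of at least 200 bp, 50% GC and a CpG observed/expected value of 0.6. Lineages were compared by an exact two-sided permutation test of the mean percentile over cell types (0 where not called), with Benjamini-Hochberg adjustment over all genes with a call. Every gene of the list was named, isozymes with values. The members and lists were chosen with earlier results of these data known. Alternatives covered windows, starts, overlap, list size, signal column, cell types, preparation and label tag. Overlaps, percentiles and the test were tested on simulated data, the overlaps against bedtools 2.31.1. Calculations used Python 3.11.15, numpy 2.4.6 and pandas 2.3.3, and figures matplotlib 3.10.9.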

Additional observations from a re-analysis of the deposited data

How the results depend on the processing

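No paired analysis was possible because replicates were pooled before peak calling. Of 333 values recomputed for the summary results, 312 stayed within the spread over cell types, or within 1.5 times for counts. Among the 312 were the gene counts of the lineage test, which were 0 in every setting. They also include runs that left out a cell type without the mark, which give the same value by construction. With the 5000 strongest peaks of each list, the mean number of called genes fell to 9.12 for H3K18la, 13.6 for H3K27ac and 1.29 for H3K27me3, the excess over all genes became 22 points for H3K18la and 31.8 for H3K4me3, and 0 genes were called for H3K18la in all 8 cell types. Median percentiles, then counted among 5000 peaks, became 55.9, 67.6 and 81.1 for H3K18la, H3K27ac and H3K4me3, and log2 width ratios 0.0538 for H3K18la and 0.517 for H3K4me3. With lists cut to equal bases the counts were 6.5 for H3K18la and 1.29 for H3K27me3, the H3K18la excess 15.4 points, and 0 and 11 genes were called in all and in none of the cell types. Both settings drop peaks, which lowers counts by construction. The H3K27ac excess was 21.4 points with the most upstream TSS, and with island genes only it was 23.2 for H3K27ac and 6.21 for H3K4me3. The H3K4me3 percentile was 82.9 by maximum signal, and the H3K27ac percentile 74.5 with the tag antibody, which left BMDM alone. No median of H3K27me3 among 5000 peaks could be given, since some lists had no called gene.

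Of 103 values for single genes in the lineage test, 2 changed sign. The muscle difference of Pgam2 lay between −0.0918 (without GAS) and 47.5 percentile points when each cell type was left out, and the stem cell difference of Tigar was −3.28 with lists cut to equal bases. The causes of these changes were not tested. Outside muscle, Pgam2 was called only in mESC-2i, by a peak beyond its start. With a coding start of the gene itself under the peak, a setting chosen after seeing the data, the H3K18la excess was 32.2 points and 7 genes were called in all 8 cell types.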

Other observations

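Slc2a3, the transporter GLUT3, had H3K27me3 promoter peaks of 62162 bp in BMDM and 62875 bp in PIM, at the percentiles 99.6 and 99.7 of their lists. PIM also carried H3K18la (65.7), H3K27ac (31.1) and H3K4me3 (73.9) at this promoter. At Slc2a4 both stem cell lists held H3K18la (70.4 in mESC-ser and 48.5 in mESC-2i) beside H3K27me3 (51.1 and 72.5). These genes were named in the list of other pathway genes, and whether the values differ beyond replicate error cannot be told from pooled lists.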
